A study of Mus musculus with 10 samples.

Results

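The Ms4a genes encode small proteins with several membrane-spanning segments. The 5 followed here, Ms4a4c, Ms4a6b, Ms4a6c, Ms4a6d and Ms4a7, were chosen by name from the 18292 gene symbols listed in the count tables, and all 5 were measured well enough to be among the 12157 genes tested. They were read in single cell RNA profiles of microglia sorted from C57BL/6 mice as live CD11b high, CD45 intermediate cells, in 5 groups of 2 libraries. Adult microglia were acutely isolated from the brains of adult mice. Slice microglia came from organotypic brain slices cut from newborn pups and kept on a membrane in medium with horse serum for 1 day, 1 week or 3 weeks, with slices pooled as needed, and in vitro microglia came from mixed glial cultures of newborn cortex held for 3 weeks. The labels name no genetic change or treatment for any group. Culture and the age of the donor mice cannot be told apart, because the cultures came from newborns.

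Ms4a proteins sit in the plasma membrane or in endosomes and are thought to act beside immune receptors and channels; the founding member, Ms4a1, is the B cell antigen CD20. In the mouse brain Ms4a7 is best known as a marker of border macrophages, the macrophages of the meninges, choroid plexus and vessels, and is low in resting parenchymal microglia. Ms4a4c, Ms4a6b, Ms4a6c and Ms4a6d are expressed by monocytes and tissue macrophages, Ms4a4c being induced by interferon, and variants at the human locus have been linked to Alzheimer's disease risk and to soluble TREM2.

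The 5 genes lie on mouse chromosome 19 (GRCm38, GENCODE M21), within 283.8 kb of a cluster of 19 protein-coding Ms4a genes that spans 678.6 kb. Ms4a7 runs from 11321039 to 11336146 on the minus strand and Ms4a4c from 11404770 to 11427246 on the plus strand. Ms4a6c (11469366 to 11482192) and Ms4a6b (11516512 to 11531256) follow on the plus strand, and Ms4a6d (11586604 to 11604849) lies on the minus strand. The Ms4a6 coding sequences resembled one another most: Ms4a6b and Ms4a6c were identical at 85.4% of aligned bases, Ms4a6b and Ms4a6d at 81.2%, and Ms4a6c and Ms4a6d at 79.0%, against 64.3% to 65.9% for each with Ms4a7. The libraries count the 3′ end of a transcript, where most of their sequence differs. Of the runs of 50 bases in the last 500 bases of the annotated coding transcripts, Ms4a7 and Ms4a6d shared 0 with any other gene and Ms4a6b shared 1.22%, all with Ms4a6c. Ms4a6c shared 13.75%, in part with Ms4a6b, and Ms4a4c 11.12%, with Ms4a4b and Ms4a4d, so the counts of these 2 genes are less certain.

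The promoter windows of 4 of the 5 genes, 250 bases before and 50 after the annotated start (RefSeq, GRCm38.p6), are given because the members moved to different degrees. Ms4a7 has 2 annotated starts. At the first printed, and in Ms4a4c, the capitals mark a match to GAGGAA, the core of sites of the myeloid factor PU.1. At the second Ms4a7 start they mark a match to TGANTCA, a loose form of the AP-1 motif with any base (N) at its centre. That base is T here. In Ms4a6b and Ms4a6c the capitals mark the longest run that both share. Ms4a6d was not matched.
Ms4a7, chr19:11336097-11336396, minus strand: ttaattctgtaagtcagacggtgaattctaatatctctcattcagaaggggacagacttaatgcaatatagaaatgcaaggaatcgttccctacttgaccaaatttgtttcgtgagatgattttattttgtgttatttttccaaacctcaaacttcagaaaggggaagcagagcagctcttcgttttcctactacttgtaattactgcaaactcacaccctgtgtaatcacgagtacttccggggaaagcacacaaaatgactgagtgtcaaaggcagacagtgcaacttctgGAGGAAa
Ms4a7, chr19:11334646-11334945, minus strand: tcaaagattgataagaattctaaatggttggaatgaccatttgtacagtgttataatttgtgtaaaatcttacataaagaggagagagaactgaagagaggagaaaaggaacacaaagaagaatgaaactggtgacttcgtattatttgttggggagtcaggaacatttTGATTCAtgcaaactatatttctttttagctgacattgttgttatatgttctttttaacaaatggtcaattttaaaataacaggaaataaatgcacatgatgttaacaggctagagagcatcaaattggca
Ms4a6c, chr19:11469118-11469417, plus strand: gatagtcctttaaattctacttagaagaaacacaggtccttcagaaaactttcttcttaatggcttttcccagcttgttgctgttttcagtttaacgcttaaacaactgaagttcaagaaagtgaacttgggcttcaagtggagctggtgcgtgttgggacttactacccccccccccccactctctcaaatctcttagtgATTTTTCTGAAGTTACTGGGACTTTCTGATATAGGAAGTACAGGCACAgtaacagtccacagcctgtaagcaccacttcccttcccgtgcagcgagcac
Ms4a6b, chr19:11518309-11518608, plus strand: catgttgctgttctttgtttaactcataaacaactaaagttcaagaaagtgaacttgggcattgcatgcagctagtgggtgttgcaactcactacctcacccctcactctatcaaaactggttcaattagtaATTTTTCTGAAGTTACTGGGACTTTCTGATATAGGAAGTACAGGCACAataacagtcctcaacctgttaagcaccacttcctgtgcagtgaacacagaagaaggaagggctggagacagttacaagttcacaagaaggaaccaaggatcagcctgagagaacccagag
Ms4a4c, chr19:11407411-11407710, plus strand: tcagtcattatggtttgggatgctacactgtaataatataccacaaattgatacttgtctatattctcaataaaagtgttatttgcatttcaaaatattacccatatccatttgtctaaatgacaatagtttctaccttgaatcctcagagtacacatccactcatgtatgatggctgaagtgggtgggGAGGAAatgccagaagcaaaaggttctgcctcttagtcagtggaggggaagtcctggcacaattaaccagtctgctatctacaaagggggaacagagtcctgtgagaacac

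The Ms4a6b and Ms4a6c windows share an unbroken run of 48 bases, which starts 118 bases before the Ms4a6b start and 49 bases before the Ms4a6c start and occurs in 2 of the 32851 RefSeq windows, these 2. Over their best local alignment the pair were identical at 85.9% of 220 bases, while every other pair of windows printed here reached 56.2% to 64.6%. GAGGAA was found on either strand in 2 of the 5 member windows and in 28.3% of all windows, and TGANTCA in 1 and in 7.81%. Neither a pair of GAAA separated by any 2 bases (an interferon response motif, in 3.44% of all windows) nor CACGTG (an E-box, in 7.15%) occurred in the 5 windows. These are letters in a window and say nothing of binding.

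The libraries held 61 to 3799 cells after filtering and 385373 to 39689540 unique molecular identifiers (UMIs, each standing for 1 captured transcript), with a median of 1858 to 13966 UMIs per cell, lowest in adult and highest in vitro. The 2 slice 1 week libraries had 148 and 61 cells. For both of these libraries the paper reports fewer microglia, and its range for the other libraries is lower too. The paper also describes a screen for outlier cells by t-SNE, a map of cells by expression. No such screen was run here, so the cells counted may include some that the paper left out. The 12 genes of the microglial list summed to 51883 and 52297 CPM (UMIs relative to the library's total, here without further scaling) in the adult libraries, to 17967 and 21952 at 3 weeks, 11375 and 13255 at 1 week, 5978 and 6776 at 1 day and 4128 and 5075 in vitro, so the sum was lower in all cultures. Siglech and Sall1 of the list were close to absent in vitro, where Siglech stood at 0.353 and 0.0504 CPM (1288 and 1010 in adult) and Sall1 at 0.294 and 0.0756 CPM (141 and 124 in adult). Neutrophil genes (8 listed) summed to 7659 and 22419 CPM in the slice 1 day libraries and to 40235 and 955 CPM in the slice 1 week libraries, against 8.31 CPM or less elsewhere. Of the cells kept, 203 had high neutrophil levels, 79 had monocyte markers and 109 others had a UMI of the border macrophage genes Lyve1, Cd163 or Cd209f. These limits were set after the data were seen. The adult and slice 3 weeks groups each hold 1 library of study label TST11200 and 1 of TST11247, the label of all others. Within TST11247 these groups therefore have 1 library each, which a test there assumes to vary like the other groups. Levels of the Ms4a genes by library are CPM of UMIs summed over the cells of a library after TMM scaling, and levels in sets of cells or of marker genes are CPM without it. A gene was called where the edgeR quasi-likelihood test over all genes gave an adjusted p below 0.05 and the fold exceeded 1.5. The p-values rest only on the spread between 2 replicates per group, estimated over all 5 groups in 1 model. They do not measure the spread of the 2 compared groups alone.

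Ms4a7 was close to absent in adult microglia and highest in vitro, with slice microglia between. The adult libraries held 2.49 and 2.19 CPM (34 and 17 UMIs in all), the in vitro libraries 2440.1 and 2439.5 CPM, the slice 1 day libraries 69.5 and 51.3 CPM, the slice 1 week libraries 289 and 120.2 CPM and the slice 3 weeks libraries 89.9 and 85.3 CPM. Every cultured library was above both adult libraries, the in vitro pair was above every slice library, and only the slice 1 week pair differed widely, by 2.4-fold. Against adult, the log2 fold change was 10.01 (SE 0.44, adjusted p = 7.49e-08) in vitro, 4.66 (SE 0.37, adjusted p = 5.93e-06) at 1 day, 6.47 (SE 0.40, adjusted p = 3.11e-06) at 1 week and 5.21 (SE 0.38, adjusted p = 7.21e-06) at 3 weeks. Its rise in vitro ranked 34 of 12157 genes. The adult level, and so the size of these folds, rests on few molecules.

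In vitro, Ms4a7 also exceeded each slice time point, by 5.34 (SE 0.35, adjusted p = 6.62e-06) over 1 day, 3.53 (SE 0.33, adjusted p = 9.77e-05) over 1 week and 4.8 (SE 0.34, adjusted p = 4.84e-06) over 3 weeks on the log2 scale. The order of the group means was in vitro, slice 1 week, slice 3 weeks, slice 1 day and adult. Slice 3 weeks and slice 1 day were not told apart (log2 difference 0.54, SE 0.30, adjusted p = 0.191, but 1.97 with adjusted p = 0.0127 when cells with markers of other cell types were set aside, which left 1 library at 1 day), and the calls that set slice 1 week apart from the other slices depend on its replicate 1, although its replicate 2 alone (120.2 CPM) was also above each 1 day and 3 weeks library. The rise from 1 day to 1 week (1.81, SE 0.31, adjusted p = 0.00721) was 0.98 (adjusted p = 0.0829) without that library and 1.60 (adjusted p = 0.071) without slice 1 day replicate 2. The fall from 1 week to 3 weeks (by 1.27 on the log2 scale, SE 0.31, adjusted p = 0.0411) was 0.44 (adjusted p = 0.524) without slice 1 week replicate 1, with adjusted p = 0.0657 and 0.132 without slice 3 weeks replicate 1 and 2. With study label as a covariate it was -1.33 (adjusted p = 0.0609), and within label TST11247, with 1 library at 3 weeks, -1.30 (adjusted p = 0.0784). With cells with markers of other cell types set aside, which left 1 library each at 1 day and 1 week, neither the rise (2.52, adjusted p = 0.055) nor the fall (-0.55, adjusted p = 0.517) was called.

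**Figure D1:**
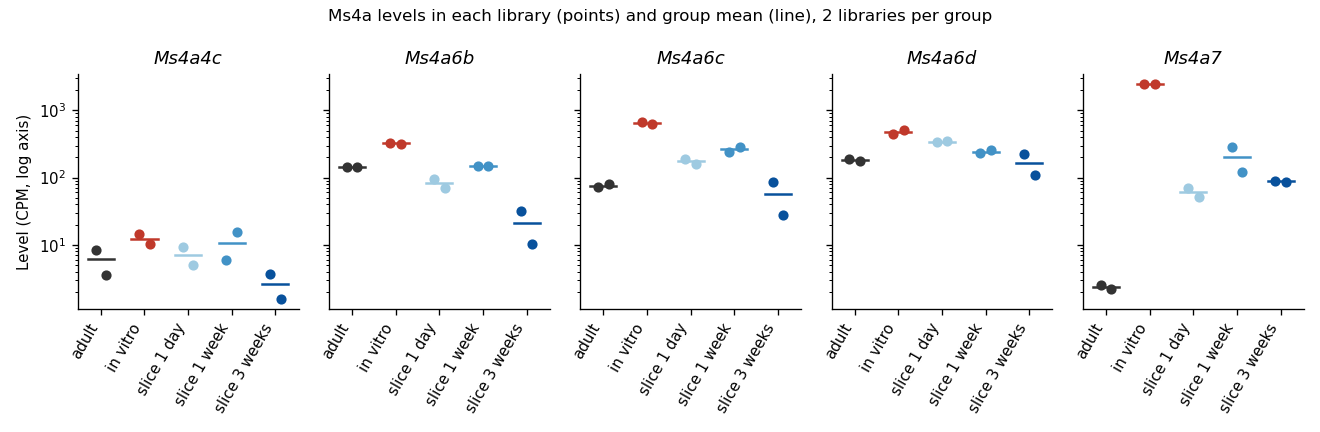
Level of each Ms4a gene in CPM after TMM scaling (log axis), 1 point per library and a line at the mean of the 2 libraries of each group. Ms4a7 lies at 2.49 and 2.19 in adult and at 2440.1 and 2439.5 in vitro, whereas Ms4a6b, Ms4a6c and Ms4a6d start from adult levels between 72.6 and 187 and are at their highest in vitro.

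Ms4a6c had the next largest fold of the 5 in vitro. Its level was 72.6 and 79.0 CPM in adult, 680.2 and 637 CPM in vitro, 192 and 157 CPM at 1 day, 244 and 284 CPM at 1 week and 86.3 and 27.9 CPM at 3 weeks. The in vitro, 1 day and 1 week libraries did not overlap adult, and the 3 weeks libraries fell on either side of it. The log2 fold change against adult was 3.12 (SE 0.41, adjusted p = 9.74e-05) in vitro, 1.2 (SE 0.38, adjusted p = 0.0215) at 1 day and 1.79 (SE 0.40, adjusted p = 0.00739) at 1 week, and -0.42 (SE 0.38, adjusted p = 0.41, or 0.76 in UMIs per cell without depth scaling) at 3 weeks. Without slice 3 weeks replicate 1 the last was -1.40 (adjusted p = 0.000471). The 1 day call was lost without adult replicate 1 (log2 1.19, adjusted p = 0.0908), without adult replicate 2 (1.26, adjusted p = 0.0704) and without slice 1 day replicate 1 (1.06, adjusted p = 0.0847), and the 1 week call without slice 1 week replicate 1 (1.93, adjusted p = 0.0502).

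Ms4a6b, which T cells express as well as macrophages, was the one member called lower than in adult. Its level was 143.6 and 144.6 CPM in adult, 332 and 319 CPM in vitro, 94.9 and 69.4 CPM at 1 day, 148 and 151 CPM at 1 week and 32.3 and 10.3 CPM at 3 weeks. Both 3 weeks libraries were below every other library, and both in vitro libraries were above. At 3 weeks the level was 6.95-fold lower than in adult (log2 -2.80, SE 0.40, adjusted p = 4.29e-04), rank 267 of 12157 genes by fall. In vitro it was 2.26-fold higher (log2 1.17, SE 0.37, adjusted p = 0.0208), a call lost without adult replicate 1 (1.27, adjusted p = 0.0693) or adult replicate 2 (1.18, adjusted p = 0.0812). It was not called at 1 day (-0.82, SE 0.38, adjusted p = 0.0888, or 0.71 in UMIs per cell, but called within label TST11247, with 1 adult library, at -0.82 with adjusted p = 0.00636 and unfiltered at -0.79 with adjusted p = 0.00018) or 1 week (0.05, SE 0.40, adjusted p = 0.95).

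The 2 slice 3 weeks libraries, which carry different study labels, differed 3.13-fold in Ms4a6b and 3.09-fold in Ms4a6c, more than any other pair of replicates did for these genes. Within label TST11200 Ms4a6b was 4.44-fold lower at 3 weeks than in adult, and within TST11247 it was 14.0-fold lower, so it was lower in both. Ms4a6c was 1.19 times the adult level within TST11200 and 2.83-fold below it within TST11247. Ms4a7 was 36.1 and 39.0 times the adult level within the 2 labels.

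Ms4a6d had the highest adult level of the 5, in UMIs, which count molecules whatever their length. As a ratio of the highest library to the lowest, Ms4a6d also had the narrowest range. It held 187 and 176 CPM in adult, 449 and 512 CPM in vitro, 334 and 345 CPM at 1 day, 229 and 256 CPM at 1 week and 221 and 107 CPM at 3 weeks. Only the 3 weeks libraries overlapped adult. The rise in vitro was 2.65-fold (log2 1.40, SE 0.27, adjusted p = 0.00124) and that at 1 day 1.87-fold (log2 0.90, SE 0.27, adjusted p = 0.0152), the latter lost without adult replicate 2 (0.86, adjusted p = 0.0729) or slice 1 day replicate 2 (0.94, adjusted p = 0.051). At 1 week the log2 fold change was 0.41 (SE 0.28, adjusted p = 0.295) and at 3 weeks -0.15 (SE 0.27, adjusted p = 0.696, or 0.99 in UMIs per cell), and without slice 3 weeks replicate 1 the latter was -0.72 (adjusted p = 0.0078). Within the 2 labels the 3 weeks level was 1.19 times and 0.609 times that of adult.

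Ms4a4c was the lowest of the 5 in every cultured library. Its level was 8.50 and 3.61 CPM in adult, 14.4 and 10.4 CPM in vitro, 9.17 and 5.05 CPM at 1 day, 5.93 and 15.4 CPM at 1 week (6 UMIs in each library) and 3.62 and 1.58 CPM at 3 weeks. Against adult it passed in none of the 4 comparisons, with log2 fold changes of 0.99 (SE 0.45, adjusted p = 0.0831) in vitro, 0.11 (SE 0.50, adjusted p = 0.876) at 1 day, 0.51 (SE 0.77, adjusted p = 0.669) at 1 week and -1.40 (SE 0.52, adjusted p = 0.0533) at 3 weeks. Its adult replicates differed 2.36-fold. With study label as a covariate it was called in vitro (1.76, adjusted p = 0.00375) and at 3 weeks (-1.21, adjusted p = 0.026), and within label TST11247, against 1 adult library, in vitro (1.78, adjusted p = 0.00809). It was also called in vitro in cells thinned to 1000 UMIs each (1.27, adjusted p = 0.0213), with cells with markers of other cell types set aside (2.25, adjusted p = 0.0227) and without the filter on low counts (1.15, adjusted p = 2.37e-04), and at 3 weeks in thinned cells (-2.09, adjusted p = 0.0213) and unfiltered (-1.33, adjusted p = 4.03e-04). In UMIs per cell it was called in vitro (3.06, adjusted p = 5.72e-11), at 1 day (1.56, adjusted p = 0.00133) and at 1 week (1.65, adjusted p = 0.024). Without adult replicate 1 the in vitro rise was 1.87 (adjusted p = 0.0247), and the 3 weeks fall was 1.84 on the log2 scale (adjusted p = 0.0265) without adult replicate 2 and 1.96 (adjusted p = 0.0183) without slice 3 weeks replicate 1. In vitro against slice 3 weeks it was 5.22-fold higher (log2 2.39, SE 0.49, adjusted p = 0.00388).

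**Figure D2:**
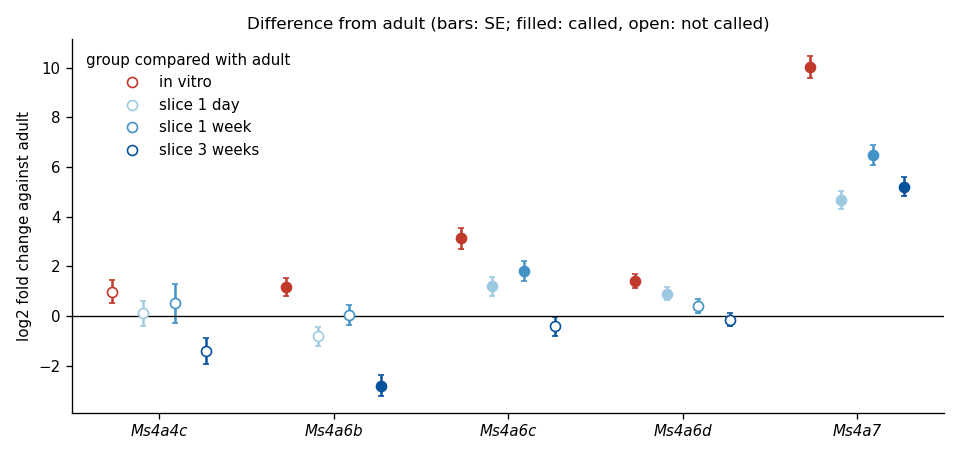
Log2 fold change of each Ms4a gene against adult, with its SE, for in vitro and the 3 slice time points (2 libraries per group, filled where called, open where not). Ms4a7 is called in all 4 comparisons, between 4.66 and 10.01, while at 3 weeks Ms4a6b is the one gene called below adult, at -2.80.

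Counted over the 5, 4 were called higher in vitro than in adult and 0 lower, where 22.4% of all genes tested were called higher and 28.5% lower. Their median log2 fold change was 1.40, beside -0.11 for all genes. At 1 day 3 were higher and 0 lower (24.9% and 25.3% of all genes), at 1 week 2 were higher and 0 lower (15.0% and 13.6%), and at 3 weeks 1 was higher (17.9%) and 1 lower (17.5%), with medians of 0.90, 0.51 and -0.42. These comparisons share the adult libraries.

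All 5 were called higher in vitro than at slice 3 weeks, where 13.3% of all genes were (19.9% were lower), with a median log2 difference of 3.54 beside -0.10 for all genes. Ms4a6b differed by 3.97 (SE 0.42, adjusted p = 6.81e-05), Ms4a6c by 3.54 (SE 0.41, adjusted p = 1.25e-04) and Ms4a6d by 1.55 (SE 0.27, adjusted p = 0.00147), and all 5 stayed called in each of the 16 other settings run. Leaving out 1 library gave 3.39 to 5.06 for Ms4a6b, 3.00 to 4.64 for Ms4a6c, 1.18 to 2.24 for Ms4a6d and 1.83 to 3.04 for Ms4a4c. Against slice 1 day, Ms4a6b, Ms4a6c and Ms4a7 (3 of 5) were higher in vitro (13.3% of all genes, 18.6% lower). The log2 differences were 1.99 for Ms4a6b and 1.92 for Ms4a6c. With marked cells set aside and 1 library left at 1 day, Ms4a6b (1.87, adjusted p = 0.0933) and Ms4a6c (1.94, adjusted p = 0.091) were not called. Against slice 1 week, Ms4a6c, Ms4a6d and Ms4a7 were higher (6.20% of all genes, 10.0% lower), where Ms4a6c (1.33, SE 0.39, adjusted p = 0.0435) lost its call without any one of the 4 libraries compared (1.31 to 1.59, adjusted p of 0.0741 to 0.251). Ms4a6d (0.99, SE 0.28, adjusted p = 0.0341) lost it without in vitro replicate 2, slice 1 week replicate 1 or slice 1 week replicate 2 (1.00 to 1.22, adjusted p of 0.0663 to 0.2). Neither Ms4a6c (1.00, adjusted p = 0.472) nor Ms4a6d (0.91, adjusted p = 0.334) was called with marked cells set aside. Ms4a6b was not called (1.12, SE 0.40, adjusted p = 0.0846), but was with DESeq2 (1.13, adjusted p = 0.0446), with study label as a covariate (adjusted p = 0.0426), within label TST11247 (adjusted p = 0.00255), in thinned cells (1.78, adjusted p = 0.0275), unfiltered and in UMIs per cell.

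From 1 day to 3 weeks in slices the Ms4a6 genes fell, and Ms4a7 was not called. From 1 day to 3 weeks Ms4a6b fell by 1.98 on the log2 scale (SE 0.40, adjusted p = 0.00485), Ms4a6c by 1.62 (SE 0.39, adjusted p = 0.0112) and Ms4a6d by 1.05 (SE 0.27, adjusted p = 0.015). That was 3 of 5 called lower, where 12.8% of all genes were (13.9% were higher), and the Ms4a6d call was lost without slice 1 day replicate 2 (-1.02, adjusted p = 0.0774). With marked cells set aside and 1 library left at 1 day, Ms4a6b (-2.03, adjusted p = 0.0801), Ms4a6c (-1.51, adjusted p = 0.152) and Ms4a6d (-0.87, adjusted p = 0.202) were not called and Ms4a7 was called higher (1.97, adjusted p = 0.0127). Ms4a4c (-1.51, SE 0.55, adjusted p = 0.0602) was not called, but was with study label as a covariate (-2.08, adjusted p = 0.00556), within label TST11247 with 1 library at 3 weeks (-2.04, adjusted p = 0.00904), in thinned cells (-2.58, adjusted p = 0.0316), without slice 3 weeks replicate 1 (-2.05, adjusted p = 0.0216), unfiltered and in UMIs per cell. From 1 week to 3 weeks Ms4a6b (by 2.85, SE 0.43, adjusted p = 0.00541), Ms4a6c (by 2.22, SE 0.41, adjusted p = 0.0133) and Ms4a7 were lower (3.49% of all genes, 2.23% higher). Ms4a6d was not called (-0.56, SE 0.28, adjusted p = 0.285). Its difference was -1.12 to -0.07 with 1 library left out and -1.16 within label TST11247, with 1 library at 3 weeks. Without slice 1 week replicate 1 the Ms4a6b fall was 2.84 on the log2 scale (adjusted p = 0.11) and the Ms4a6c fall 2.31 (adjusted p = 0.14), and without slice 1 week replicate 2 the Ms4a6c difference was -2.02 (adjusted p = 0.0684). The Ms4a6b call was lost in thinned cells (-2.21, adjusted p = 0.0506), and with marked cells set aside and 1 library left at 1 week Ms4a6b (-2.88, adjusted p = 0.173), Ms4a6c (-2.45, adjusted p = 0.19) and Ms4a7 were not called. From 1 day to 1 week Ms4a7 alone was called, higher (4.91% of all genes, 5.25% lower).

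Of 11 other members and relatives listed in the tables, 6 were tested. Ms4a14 and Ms4a4a, the genes on either side of Ms4a7, were barely detected in adult and rose in vitro. Ms4a14 had 0 UMIs in both adult libraries and 13.5 and 12.8 CPM in vitro, at least 93.9-fold higher than the floor of 3 counts over the adult group (adjusted p = 3.04e-05). Ms4a4a had 1 UMI in each adult library and 9.51 and 9.46 CPM in vitro (log2 6.52, SE 0.66, adjusted p = 1.63e-05), and 5.93 and 7.68 CPM at 1 week, from 6 and 3 UMIs. Ms4a4a was also called at 1 day (log2 4.25, adjusted p = 0.00142, from 4 and 24 UMIs) and at 1 week, and Ms4a14 at 1 week (7 and 0 UMIs) and 3 weeks (2 and 18 UMIs). Ms4a4b, a T cell gene beside Ms4a6c whose transcript shares sequence with the 3′ end of Ms4a4c, had 1 UMI in adult and 3.31 and 2.53 CPM in vitro. Ms4a3, which marks granulocyte and monocyte progenitors, was found only in slice 1 day replicate 2 (70 UMIs) and slice 1 week replicate 1 (5 UMIs), the 2 libraries with the highest neutrophil sums. Tmem176a and Tmem176b, related channel-like proteins on chromosome 6, were called lower at 1 day by 2.28 and 2.01 on the log2 scale (adjusted p = 0.00034 and 0.000268) and in no other comparison with adult. The rest (Ms4a1, Ms4a2, Ms4a5, Ms4a8a and Ms4a15) had at most 9 UMIs in any library.

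**Figure D3:**
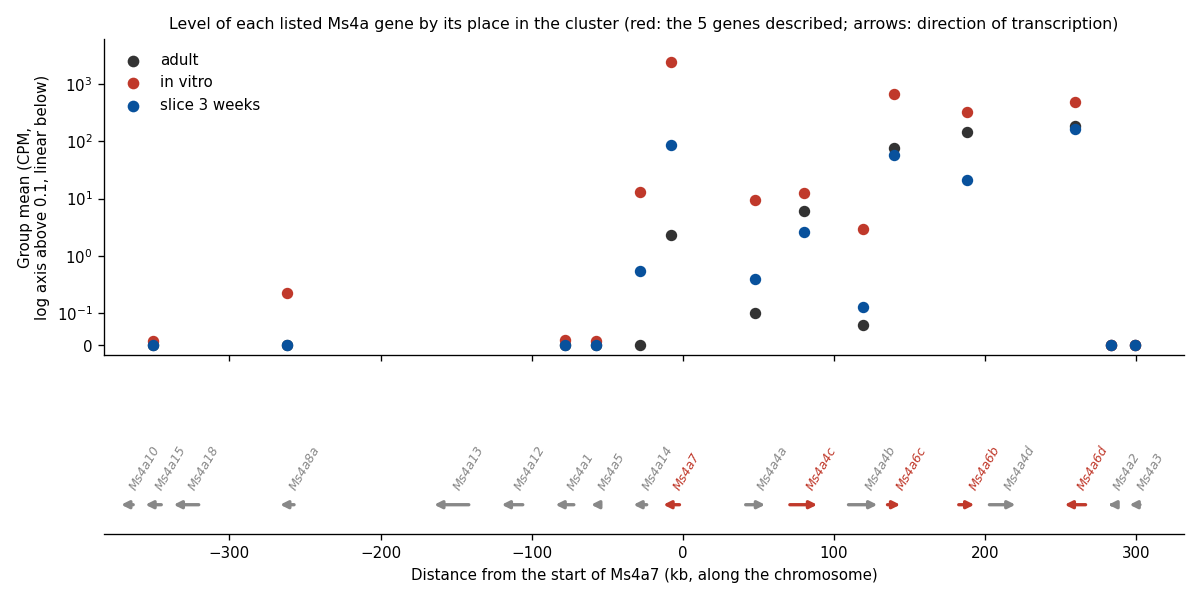
Mean level over 2 libraries in CPM (log axis above 0.1, linear below) of each listed Ms4a gene, placed by distance in kb from the start of Ms4a7, for adult, in vitro and slice 3 weeks, over a map of the 19 genes with arrows for the direction of transcription. From Ms4a14 to Ms4a6d, in vitro is the highest of the 3 groups at each gene listed.

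Cell by cell, Ms4a7 was found in nearly every in vitro cell, in a minority of slice cells and rarely in adult cells. A Ms4a7 UMI was found in 16 of 3799 and 5 of 3527 adult cells (0.421% and 0.142%, exact 95% intervals 0.241% to 0.683% and 0.046% to 0.331%) and in 99.6% and 99.9% of in vitro cells, which held a median of 29 and 30 UMIs each. In slices the share was 13.9% and 16.0% in the 1 day libraries, 35.8% and 29.5% in the 1 week libraries, and 16.6% and 8.80% in the 3 weeks libraries. With each cell thinned to 1000 UMIs, so that depth was equal, it was 0.241% and 0.12% in adult, 84.2% in both in vitro libraries, 4.83% and 4.14% in the 1 day slices, 14.2% and 11.9% in the 1 week slices, 5.38% and 4.71% in the 3 weeks slices. Cells with high neutrophil genes, which should lack Ms4a7, gave the background. In slice 1 day replicate 1, 0 of 68 such cells had a UMI (median 2224 UMIs per cell, which allows a share of up to 4.41%), against 14.4% of the 410 cells left without the neutrophil, monocyte and border macrophage cells counted above (median 7285), and in replicate 2 the shares were 4.55% and 15.6% (medians 4925 and 9161). In slice 1 week replicate 1 they were 12.5% of 24 cells and 39.3% (medians 4490.5 and 7288). Intervals and this limit cover counting error only.

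The thinned shares of the other genes did not always follow their levels, since at 1 week those of Ms4a6b were below adult and those of Ms4a6d on either side of it. For Ms4a6c they were 7.53% and 8.37% in adult, 43.2% and 43.1% in vitro, 16.2% and 11.2% in 1 day slices, 13.5% and 18.6% in 1 week slices, then 7.63% and 2.22% at 3 weeks. For Ms4a6b they were 15% and 14.5% in adult, 27.3% and 25.3% in vitro, 7.72% and 7.20% in 1 day slices, 8.78% and 10.2% in 1 week slices, then 3.99% and 1.02% at 3 weeks. Ms4a6d was seen in 18.5% and 17.9% of adult cells, 31.9% and 35.2% in vitro, 25.1% and 26.6% in 1 day slices, 12.2% and 20.3% in 1 week slices, then 18% and 9.68% at 3 weeks. Ms4a4c stayed at or below 1.69% in every library. Neutrophil-rich cells of the slice 1 day libraries were low in all 5 genes, at 0 and 0 CPM of Ms4a4c, 11.7 and 12.1 CPM of Ms4a6b, 5.83 and 18.8 CPM of Ms4a6c, 17.5 and 65.8 CPM of Ms4a6d and 0 and 6.71 CPM of Ms4a7. In slice 1 week replicate 1 the 24 such cells held more, with 102 CPM of Ms4a6c, 47.4 CPM of Ms4a6b, 40.6 CPM of Ms4a6d, 20.3 CPM of Ms4a7 and 13.5 CPM of Ms4a4c, the last from 2 UMIs and above the 4.40 CPM of the other cells.

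In slices most Ms4a7 molecules were held by a small set of cells. The limit of 3 UMIs was chosen after the values were seen. Cells with 3 or more Ms4a7 UMIs made up 4.83% and 4.24% of the cells of the 1 day libraries, 17.6% and 13.1% of those of 1 week, and 6.42% and 5% of those of 3 weeks. Of all Ms4a7 UMIs they held 78.9% and 71.9% in the 1 day libraries, 89.0% and 78.7% in those of 1 week, 79.6% and 90.1% in those of 3 weeks. In vitro 98.8% and 99.5% of cells were of this kind, and in adult 3 and 2 cells. The remaining slice cells together held 8.66 to 38.3 CPM, against 1.21 and 0.589 CPM in the remaining adult cells. The neutrophil-rich cells held 6.71 CPM in slice 1 day replicate 2 and 20.3 CPM in slice 1 week replicate 1, where the remaining cells held 15.3 and 38.3 CPM. The part of free RNA was not tested.

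**Figure D4:**
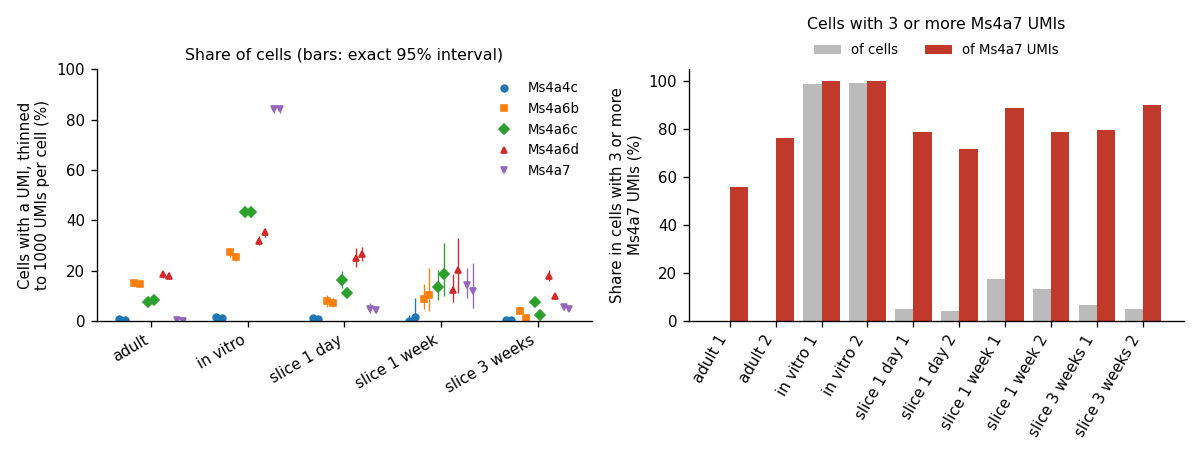
Left, share of cells (%) with a UMI of each Ms4a gene after thinning to 1000 UMIs per cell, 1 point per library with its exact 95% interval. Right, cells with 3 or more Ms4a7 UMIs, as a share of the cells (grey) and of all Ms4a7 UMIs (red) of each library (%); in the slice libraries 4.24% to 17.6% of cells hold 71.9% to 90.1% of the UMIs.

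The Ms4a7-rich cells of the slices also carried more of the other Ms4a genes. In the 5 slice libraries with 20 or more of them, their summed level was set beside that of cells with no Ms4a7 UMI. The median depth of the rich cells was higher in each, most in slice 1 week replicate 1 (10173 against 5789 UMIs per cell). Cells with no Ms4a7 UMI included the neutrophil-rich cells. Neutrophil genes summed to 9046 and 24990 CPM in them at 1 day and to 61128 CPM in slice 1 week replicate 1. In the rich cells they summed to 484, 4483 and 5855 CPM. The part of neutrophil-rich cells in these ratios, here and below, was not tested. Ms4a6c was 3.69- to 13.3-fold higher, Ms4a6b 2.96- to 8.84-fold, Ms4a6d 2.09- to 3.86-fold and Ms4a4c 1.51- to 5.78-fold, each in 5 of 5 libraries, but Ms4a4c from only 2 to 8 UMIs in the rich cells of a library. In slice 3 weeks replicate 2, 187 Ms4a7-rich cells had 194 CPM of Ms4a6c and 59.0 CPM of Ms4a6b, against 14.5 and 6.67 CPM in cells without Ms4a7. Cells chosen for 1 gene and then compared for another are described here, not tested.

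Markers of border macrophages were higher beside Ms4a7 in part. Of the 10 listed (Mrc1, Pf4, Lyve1, Cd163, F13a1, Cbr2, Stab1, Clec10a, Folr2 and Cd209f), 8 were called higher in vitro than in adult (22.4% of all genes), 6 at 1 day (24.9%), 7 at 1 week (15.0%) and 4 at 3 weeks (17.9%). At 3 weeks 1 was called lower (17.5% of all genes). The list summed to 136 to 175 CPM in adult, 2738 to 2886 CPM in vitro, 399.7 to 449 CPM at 1 day, 368 to 407 CPM at 1 week and 128 to 208 CPM at 3 weeks, so at 3 weeks its sum lay about as in adult while Ms4a7 was 36.9-fold higher. Stab1, a scavenger receptor and the main part of the adult sum, was at 162 and 129 CPM in adult and at 87.9 and 59.2 CPM at 3 weeks. In vitro, Pf4, a chemokine, stood at 1873 and 1788 CPM, Mrc1, the mannose receptor, at 351 and 306 CPM and Stab1 at 558 and 503 CPM. Lyve1, Cd163 and Cd209f of the list stayed at or under 6.19 CPM in every library and were at 0 or 0.0896 CPM at 3 weeks. In the Ms4a7-rich slice cells Mrc1 was 9.35- to 22.6-fold and Pf4 5.08- to 94.1-fold higher than in cells without Ms4a7, and F13a1 and Stab1 were also higher in 5 of 5 libraries. Folr2 was higher in 3 of 5 (12.2 against 25.9 CPM in slice 1 week replicate 1 and 34.2 against 38.3 CPM in slice 3 weeks replicate 1) and Cbr2 in 3 of 5, from 2 UMIs or fewer in these cells of each library. At 1 day these cells also had 69.1 and 79.2 CPM of Lyve1, against 0 and 1.28 CPM, and at 3 weeks 0 UMIs of it. Of the rich cells, 6 of 25 and 14 of 43 at 1 day, 2 of 26 and 0 of 8 at 1 week, and 0 of 74 and 1 of 187 at 3 weeks were among the 109 cells with a UMI of Lyve1, Cd163 or Cd209f.

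A cell counted as marked when it held at least 2 genes and 5 UMIs per 10000 of the border macrophage, monocyte, neutrophil or lymphocyte list. At 1 day 24 of 25 and 43 of 43 Ms4a7-rich cells were marked, but in replicate 2 so was every cell, by neutrophil transcripts. In replicate 1, 64.1% of all cells were marked, 281 cells by the neutrophil list and 51 by the border macrophage list. At 3 weeks 23 of 74 and 50 of 187 rich cells were marked, against 7.37% and 4.06% of all cells. There all marked cells were marked by the border macrophage list. Outside the marked cells Ms4a7 stood at 69.2 and 62.0 CPM at 3 weeks, against 0.812 and 0.59 CPM in adult, and at 17.7 CPM (23 UMIs in 186 cells) in slice 1 day replicate 1 and 101 CPM in slice 1 week replicate 2. With only the 391 neutrophil, monocyte and border macrophage cells set aside it stood at 64.3 and 44.1 CPM at 1 day and 295 and 122.6 CPM at 1 week. In vitro only 101 and 90 cells were unmarked, and they had 2161 and 2174 CPM. Unmarked means below this limit, not free of the markers. With marked cells set aside, which leaves 1 library each at 1 day and at 1 week, Ms4a7 was still called against adult in vitro and at 3 weeks. At 1 day and 1 week it was called too, but there the lone library is assumed to vary like the other groups. Ms4a6b in vitro (log2 0.90, adjusted p = 0.119), Ms4a6c (0.93, adjusted p = 0.234) and Ms4a6d (0.67, adjusted p = 0.197) at 1 day and Ms4a6c at 1 week (1.87, adjusted p = 0.0755) were not, and Ms4a4c in vitro, not called with all cells, was (2.25, adjusted p = 0.0227). The part of Pf4- and Mrc1-bearing cells in the 1 day rise was not tested.

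Among microglial and disease-associated genes, the Ms4a7-rich cells differed from the rest in ways that were not the same at each time. P2ry12 (0.198 to 0.71 times the level in cells without Ms4a7) and Sall1 (0.185 to 0.296 times) were lower in 5 of 5 libraries, as were Siglech, Gpr34, Selplg and Olfml3. Others of the microglial list were not, with Aif1 higher in 4 of 5, Csf1r and Fcrls in 3 and Cx3cr1 in 2. Tmem119 stood at 176 and 101 CPM in the rich cells at 3 weeks, against 574 and 399 CPM, but at 104 and 108 CPM at 1 day, against 109 and 42.1 CPM. Gpnmb, a lysosomal glycoprotein, reached 1314 and 777 CPM in the rich cells at 3 weeks against 96.7 and 93.9 CPM, and Spp1, which encodes osteopontin, 12417 and 10428 CPM against 2984 and 516 CPM. Cst7, Ctsl, Cd9, Csf1 and Lpl of the same disease-associated list were lower in 5 of 5 libraries, Cst7 at 395 and 678 CPM at 3 weeks against 962 and 1681 CPM, and Axl and Cd63 were higher in 5 of 5. At 1 day Spp1 was lower in them, at 3871 and 7337 CPM against 11503 and 12447 CPM. The sum of the 10 proliferation genes was lower in 5 of 5 (0.139 to 0.412 times). The sum of the 20 interferon genes was higher in 5 of 5 (1.5 to 4.59 times).

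**Figure D5:**
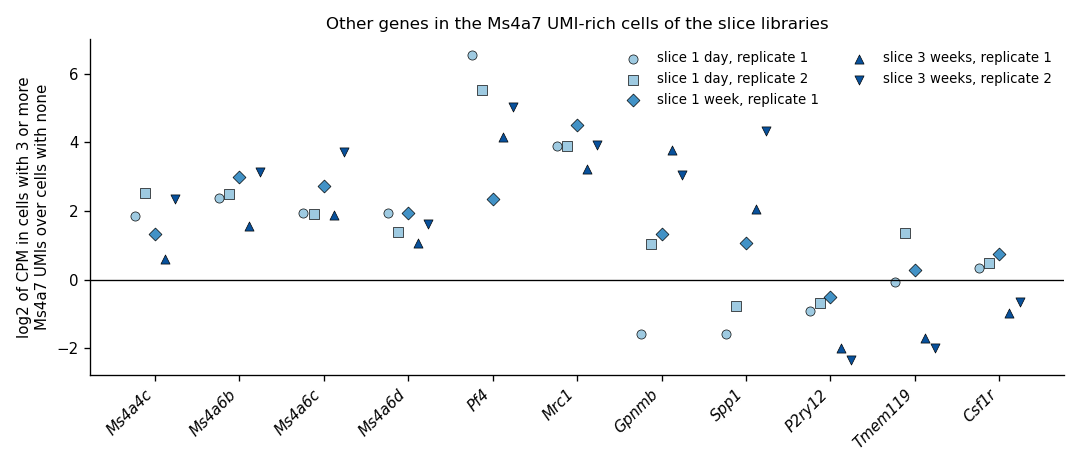
Log2 ratio of the level in cells with 3 or more Ms4a7 UMIs to that in cells with none, 1 point for each of the 5 slice libraries with at least 20 such cells; the genes shown were picked after their values were seen. The other 4 Ms4a genes, Pf4 and Mrc1 lie above 0 in all 5 libraries, and P2ry12 below. Gpnmb and Spp1 are highest in the 3 weeks libraries. At 1 day and in slice 1 week replicate 1, the cells with none include neutrophil-rich cells.

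Ranked by other programmes, the members differed. In the tenth of thinned cells highest for 20 interferon-induced genes, Ms4a4c was higher than in the rest in 8 of 9 libraries and lower in 0 (56.3 against 5.06 CPM in adult replicate 1, from 21 and 17 UMIs), and Ms4a6b was higher in 9 of 9. Ms4a6c and Ms4a7 were higher in 8. In the tenth highest for the disease-associated list Ms4a6d was higher in 8 of 9 libraries, whereas Ms4a6b was lower in 7 and Ms4a7 lower in 6, its 3 exceptions being slice 1 week replicate 1 (467 against 218 CPM) and both slice 3 weeks libraries (296 against 63.6 CPM and 211 against 67.7 CPM). In the tenth highest for microglial identity genes Ms4a6d was again higher in 8 of 9, and in the tenth highest for proliferation genes Ms4a7 was lower in 8.

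Over the 10 libraries Ms4a6c and Ms4a6d had the most similar pattern of the 5 (Pearson r of log2 CPM 0.915), followed by Ms4a4c with Ms4a6b (0.837) and with Ms4a6c (0.833) and Ms4a6b with Ms4a6c (0.826), whereas Ms4a7 followed Ms4a6b least (0.275). Within libraries, cell by cell, Ms4a6b and Ms4a6c had r of 0.24 to 0.579 in the 6 libraries deep enough to compare. In both slice 3 weeks libraries Ms4a6c followed Ms4a7 more closely (0.276 against 0.24, and 0.441 against 0.268). The points of the first set share the group differences, and the cells of the second share a library and its depth.

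By the same measure over the 10 libraries, the 3 of 3648 genes with a mean log2 CPM of at least 5 most like Ms4a7 were Aes (r = 0.989), Serf2 (0.988) and Gpx4 (0.987), which encode a transcriptional corepressor, a small charged protein and a peroxidase of membrane lipids. Aes went from 74.0 and 58.5 CPM in adult to 318 and 344 CPM in vitro. Those most like Ms4a6c were Tnfaip8 (0.97), Igfbp4 (0.965) and 2610001J05Rik (0.959). For Ms4a6b they were Snrpb2 (0.976), Ppp1r18 (0.941) and Egln2 (0.938), for Ms4a6d Ccdc124 (0.97), Slc9a3r1 (0.967) and Abracl (0.957), and for Ms4a4c Acaa1a (0.896), Hlx (0.883) and Snrpb2 (0.883). Igfbp4, a binding protein of insulin-like growth factor, ranged from 10.6 CPM in slice 3 weeks replicate 2 to 492 CPM in in vitro replicate 1.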

How the data were processed

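The 10 libraries (5 groups of 2, 1 library per biological replicate) were analysed. The files the authors deposited hold unnormalised UMI counts for each gene in each cell, made with Cell Ranger 1.3.0 on the mm10 build per the submitters' processing notes. The first column holds gene symbols, and 13 symbols listed more than once were summed. Of 19637 barcodes, 19059 were kept (mitochondrial share up to 5%, at least 400 genes, at most 30000 UMIs), and 226 barcode sequences occurred in more than 1 library. No doublet caller was run. Counts were summed per library, filtered with filterByExpr (minimum 10) and fitted in 1 edgeR 4.0.16 model of 5 groups (TMM, quasi-likelihood test, Benjamini-Hochberg over 12157 genes), checked on simulated data. The biological coefficient of variation was 18.3%. An exact permutation test of 2 against 2 cannot go below 0.333, so none was used. Cells were thinned to 1000 UMIs (18786 cells). DESeq2 1.42.0 was an alternative.

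The text names the 5 members, other Ms4a and Tmem176 genes, the 3 genes nearest each member in pattern, and marker genes. The members and lists were chosen with earlier results of these data known. Replicate numbers did not pair the libraries (r of -0.112 to 0.0941 between deviations). Coordinates are from GENCODE M21.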

Additional observations from a re-analysis of the deposited data

How the results depend on the processing

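Of 780 refitted log2 fold changes, 672 kept their direction and call, 42 lost the call, 49 gained it and 17 changed sign; Ms4a7 against adult kept both in 63 of 63. Setting out cells marked for other types, as planned, removed every cell of slice 1 day replicate 2 and slice 1 week replicate 1, leaving fewer libraries to test; members called became 1 (1 day against adult), 1 (1 week against adult), 1 (in vitro against 1 day), 1 (in vitro against 1 week), 0 (1 week against 1 day), 1 (3 weeks against 1 day, Ms4a7 higher in place of the Ms4a6 genes lower) and 0 (3 weeks against 1 week). A stricter cut, chosen after seeing the data, removed 391 cells and changed no call. UMIs per cell without depth scaling, also chosen afterwards, moved the median of all genes by -0.46 to 2.16 and called 5 members for 1 week against adult, in vitro against 1 day and in vitro against 1 week; Ms4a6b at 1 day (0.71) and Ms4a6c (0.76) and Ms4a6d (0.99) at 3 weeks then lay above adult. With no filter 5 members were called in vitro against 1 day and 2 for 1 week against 1 day; with label TST11247 alone 4 for 3 weeks against adult and 2 for 1 week against 1 day. Leaving out 1 library gave 1 to 4 calls (1 day against adult), 1 to 2 (1 week), 2 to 5 (3 weeks), 1 to 4 (in vitro against 1 week), 0 to 2 (1 week against 1 day) and 0 to 3 (3 weeks against 1 week). The 17 sign changes were all of differences not called in the main analysis. Leaving out 1 library gave, for Ms4a4c, -0.33 to 0.94 at 1 day and -0.11 to 1.34 at 1 week against adult, -0.22 to 1.22 in vitro against 1 week and -0.26 to 1.17 at 1 week against 1 day, with -0.30 at 1 day without slice 1 day replicate 1 and -0.05 at 1 week against 1 day without slice 1 day replicate 2; at 3 weeks against adult it gave -1.40 to 0.25 for Ms4a6c and -0.72 to 0.34 for Ms4a6d. Thinned cells gave -0.45 for Ms4a4c, -0.45 for Ms4a6b and -0.13 for Ms4a6d at 1 week against adult and -0.95 for Ms4a4c at 1 week against 1 day, and Ms4a6b at 1 week against adult was -0.0003 unfiltered and -0.13 without marked cells. Over all genes, calls moved from 6180 to at most 10338 (in vitro against adult), from 6104 to as few as 3157 (1 day), from 3472 to 1112 to 5512 (1 week), from 4308 to 7136 (3 weeks), from 4034 to 2015 to 7076 (in vitro against 3 weeks), from 3875 to as few as 728 (in vitro against 1 day), from 1970 to 228 to 5412 (in vitro against 1 week), from 1235 to 6 to 1979 (1 week against 1 day), from 3246 to as few as 386 (3 weeks against 1 day) and from 695 to 14 to 1722 (3 weeks against 1 week). Causes were not tested. The numbers do not pair the libraries; a replicate block called Ms4a4c in vitro (1.09) and at 3 weeks (-1.27) against adult and at 3 weeks against 1 day (-1.51), and changed no other call.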
